A study of Mus musculus with 4 samples.

Results

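The solute carriers (SLC genes) are the membrane proteins that move amino acids, sugars, ions, metals, nucleosides, vitamins and metabolites into cells and between their compartments. In the deposited RPKM table, 353 of 22083 genes had a symbol of the form Slc, a number, the letter a and a number, or began with Slco. Members were the 122 of these with a value of at least 1 RPKM in at least 2 of the 4 libraries. RPKM is a read count scaled to gene length and sequencing depth. RNA was sequenced from group 2 innate lymphoid cells (ILC2s), tissue-resident lymphocytes that lack antigen receptors and make type 2 cytokines. SI-ILC2s had been sorted from the small intestinal lamina propria and WAT-ILC2s from mesenteric white adipose tissue, in 2 libraries each. All 4 libraries came from WT mice of the C57BL/6 strain at 9 weeks of age, and no treatment is named in the labels. Nothing states that replicates were taken from different animals. The p-values therefore cover only library-to-library spread, which may be technical. Sort markers are not given in the labels.

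Solute carriers are grouped into numbered families by sequence. Many work as exchangers or as sodium- or proton-coupled importers. Most of those of the SLC25 family sit in the inner membrane of mitochondria, where they link the metabolite pools of the matrix and the cytosol. The mitochondrial class below follows this family and so includes the peroxisomal carrier Slc25a17. In lymphocytes, amino acid and glucose carriers of the plasma membrane are known to be raised on activation. The substrate classes held 29 mitochondrial, 18 metal, 15 anion, 14 amino acid, 11 vitamin and lipid, 10 sugar, 10 cation, 5 nucleotide sugar and 1 nucleoside carriers among the members. Another 6 members carried peptides, amines or other substrates, and 3 members bear an Slc symbol without being carriers. The symbol rule leaves out carriers with another letter in the symbol, so part of the nucleotide sugar family (Slc35) was not analysed here.

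Depth, read from the steps between low values, was about 55800000 to 76100000 reads per library. Of 12 ILC2 marker genes, all were detected, and the lineage factor gene Gata3 had 354 and 377 RPKM in SI-ILC2s, against 338 and 397 in WAT-ILC2s. Gata3 was not called, but 4 of the 12 were called toward SI-ILC2s and 4 toward WAT-ILC2s. The tissues thus differed in part of these markers. Among 39 markers of other cells with a value, 16 passed the filter on low values, with 13 higher in WAT-ILC2s and 1, Pecam1, in SI-ILC2s. The other endothelial markers, Cdh5, Kdr and Emcn, did not pass the filter but lay higher in WAT-ILC2s without overlap, such as Emcn (0.142 against 0.967 RPKM). Of the adipocyte markers, Fabp4 averaged 0.214 RPKM in SI-ILC2s, against 3.87 in WAT-ILC2s, and the others overlapped between tissues. All 39 markers summed to 94.8 and 63.9 RPKM in SI-ILC2s, against 256 and 179 in WAT-ILC2s. Red cell markers summed to 41.5 and 13.2 RPKM in SI-ILC2s, against 139.8 and 88.9 in WAT-ILC2s. T cell markers summed to 36.9 and 30.4 RPKM in SI-ILC2s, against 77.7 and 56.6 in WAT-ILC2s. Of these, Lat had 28.5 and 23.9 RPKM in SI-ILC2s, against 54.7 and 44.2 in WAT-ILC2s. Cd3g was also called toward WAT-ILC2s, Cd3e was not called, and Cd3d and Cd8a stayed at or below 0.127 RPKM. Fibroblast markers summed to 0.417 and 0.524 RPKM in SI-ILC2s, against 9.79 and 4.39 in WAT-ILC2s, and no marker of these lists was at 0 in every library. The part of other cells in the differences below was not tested. Among 37 carriers known from red cells, enterocytes, adipocytes, macrophages, endothelium and fibroblasts, 33 did not reach the limit for members. The enterocyte carriers stayed at or below 0.764 RPKM and the red cell carriers at or below 0.267 RPKM in each library. In bulk RNA, fewer cells with a transcript and less transcript per cell cannot be told apart, and neither can effects of the isolation from each tissue.

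More carriers were higher in WAT-ILC2s than in SI-ILC2s. Of the 122 members, 14 (11.5%) stood higher in SI-ILC2s and 45 (36.9%) stood higher in WAT-ILC2s, by limma on log2(RPKM + 1) with a Benjamini-Hochberg adjusted p below 0.05. Over the 8230 genes tested, 47.5% were called, with 17.9% toward SI-ILC2s and 29.6% toward WAT-ILC2s, so WAT-ILC2 calls also outnumbered SI-ILC2 calls in the background. Changes are given as the SI-ILC2 value minus the WAT-ILC2 value of log2(RPKM + 1), a scale that understates the change of low genes. The median change of the members was -0.28, beside -0.15 over all genes tested. SI-ILC2s lay above WAT-ILC2s without overlap for 27 members and below for 71. Over all genes tested, SI-ILC2s were above without overlap for 29.8% and below for 45.9%. SI-ILC2s held 23.7% of the member calls, against 36.1% after median-of-ratios scaling, 32.1% after quantile normalization and 15.6% after rescaling to equal sums. Of the calls over all genes tested they held 37.6%, against 51.8% after median-of-ratios scaling and 48.4% after quantile normalization. With equal sums, too, their share was higher over all genes than among the members. The median change of all genes was 0.00, -0.02 and -0.26 under these scalings, and that of the members -0.15, -0.14 and -0.39, below it each time. Leaving out either of the SI-ILC2 libraries left 9 members called toward SI-ILC2s. Without SI-ILC2 replicate 1, 30 members were called toward WAT-ILC2s. Since the limit itself lets in a gene that is high in 1 tissue only, 86 members at or above 1 RPKM in all 4 libraries are also given. Of these, 9 (10.5%) were called toward SI-ILC2s and 28 (32.6%) toward WAT-ILC2s, beside 17.2% and 25.8% of the 6604 genes that reached 1 RPKM in every library. Another 5 members passed the limit through SI-ILC2 libraries alone and 15 through WAT-ILC2 libraries alone, so these had to differ in level. Among the members called and named here, they were Slc2a6, Slc15a3 and Slc20a2 on the SI-ILC2 side. On the WAT-ILC2 side they were Slc38a9, Slc16a3, Slc26a2, Slco2b1, Slc10a7, Slc17a5, Slc24a1, Slc24a5, Slc30a7, Slc25a24, Slc35a5 and Slc27a6.

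**Figure D1:**
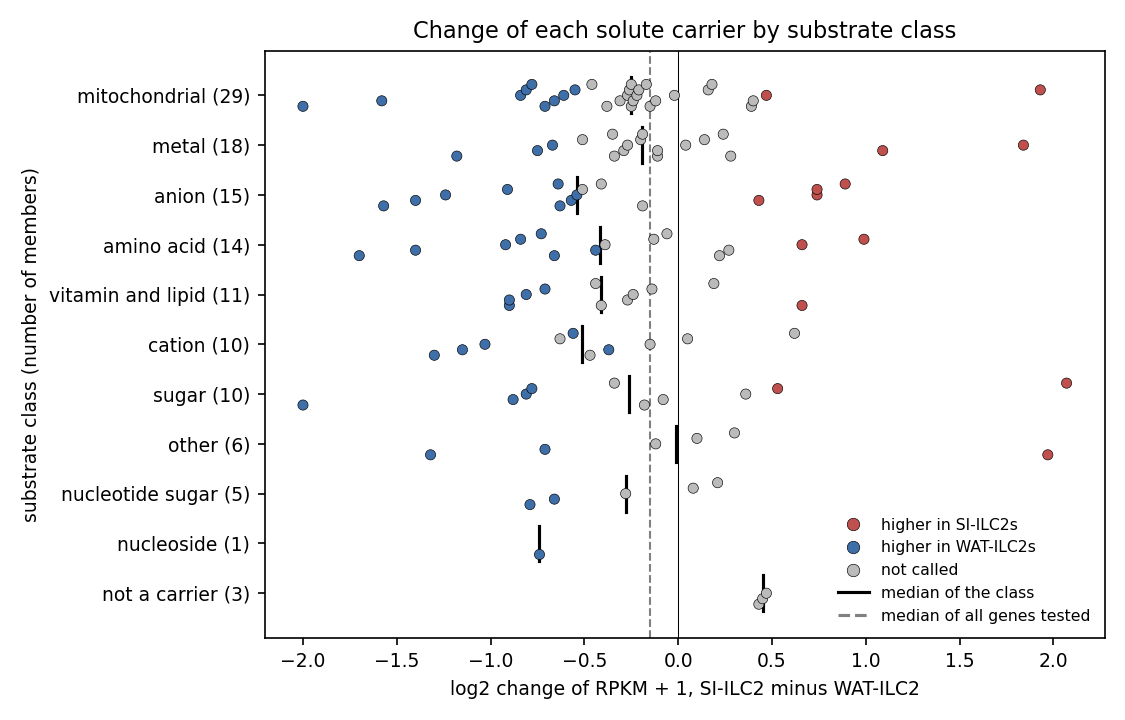
Each point is a solute carrier, placed by its log2 change of RPKM + 1 (SI-ILC2 minus WAT-ILC2, horizontal axis) within its substrate class (vertical axis, number of members in parentheses). Colours give the limma call, black bars class medians and the dashed line the median of all genes tested (-0.15). The changes run from -2.002 (Slc2a3) to 2.07 (Slc2a6). None of the 10 cation carriers was called higher in SI-ILC2s, beside 17.9% of all genes tested.

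The 5 members with a change above 1 toward SI-ILC2s were Slc2a6, Slc15a3, Slc25a51, Slc30a1 and Slc39a4, and 13 members had a change of that size toward WAT-ILC2s. Slc2a6 (chromosome 2, 27021363 to 27027998, GRCm38), a hexose carrier of lysosomes, had 3.005 and 4.94 RPKM in SI-ILC2s, against 0.156 and 0.165 in WAT-ILC2s. The WAT-ILC2 values correspond to about 28 and 35 reads and the SI-ILC2 values to about 734 and 945, by the annotated exon length. Its ratio of means was 24.8, and its change was 2.07 (SE 0.20, adjusted p = 7.5e-04). Slc15a3 (chromosome 19, 10839727 to 10859362), a lysosomal carrier of histidine and small peptides, had 3.50 and 4.498 RPKM in SI-ILC2s, against 0.306 and 0.226 in WAT-ILC2s (change 1.97, adjusted p = 4.0e-04). For both lysosomal carriers every SI-ILC2 library lay more than an order of magnitude above every WAT-ILC2 library. At the other end, Slc25a24 (chromosome 3, 109123149 to 109168457), a calcium-regulated mitochondrial exchanger of ATP-magnesium for phosphate, had 0.549 and 0.616 RPKM in SI-ILC2s, against 5.02 and 5.67 in WAT-ILC2s (change -2.002, SE 0.14, adjusted p = 3.0e-04). Slc2a3, the high-affinity glucose carrier, had a change of -2.002 (adjusted p = 6.5e-04). Slc2a6 and Slc15a3 passed the limit for members through SI-ILC2 libraries alone, and Slc25a24 through WAT-ILC2 libraries alone, so these 3 had to differ and their values are a description. Slc25a51, Slc30a1, Slc39a4 and Slc2a3, which reached 1 RPKM in all 4 libraries, were called in the same direction under every alternative that tested them.

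Upstream sequences are shown for 5 carriers with large changes in either direction whose start is listed by RefSeq (GRCm38.p6). Each is the 250 bases before the RefSeq start, 5′ to 3′ on the strand of the gene. GENCODE M21 places some starts further upstream. By its coordinates Slc16a3 starts at 120948480, so the whole Slc16a3 window lies inside the gene. Slc7a8 starts at 54781946 on the minus strand, so part of its window, with the marked core, lies inside the gene. Slc30a1 starts at 191906767, so the last bases of its window, without the marked core, do too. Capitals mark the core of the metal response element (TGCACNC or TGCGCNC) or of the hypoxia response element (ACGTG), searched on both strands.
Slc2a6 (chr2:27027999-27028248, minus strand): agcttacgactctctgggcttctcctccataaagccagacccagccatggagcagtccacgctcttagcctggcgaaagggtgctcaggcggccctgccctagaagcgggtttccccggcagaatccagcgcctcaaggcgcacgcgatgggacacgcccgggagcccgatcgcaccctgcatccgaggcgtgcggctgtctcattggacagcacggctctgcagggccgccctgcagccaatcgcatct
Slc30a1 (chr1:191906531-191906780, plus strand): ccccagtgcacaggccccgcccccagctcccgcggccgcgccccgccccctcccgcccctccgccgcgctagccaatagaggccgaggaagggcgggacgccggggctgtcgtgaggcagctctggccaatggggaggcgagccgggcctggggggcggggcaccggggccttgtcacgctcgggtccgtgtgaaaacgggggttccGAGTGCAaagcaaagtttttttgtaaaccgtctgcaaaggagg
Slc16a3 (chr11:120948817-120949066, plus strand): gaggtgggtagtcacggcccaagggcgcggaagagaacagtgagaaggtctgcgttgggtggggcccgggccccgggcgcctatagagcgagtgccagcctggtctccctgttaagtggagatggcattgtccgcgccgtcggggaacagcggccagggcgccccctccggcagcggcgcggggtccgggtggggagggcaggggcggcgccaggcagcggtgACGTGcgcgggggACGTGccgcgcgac
Slc7a8 (chr14:54781887-54782136, minus strand): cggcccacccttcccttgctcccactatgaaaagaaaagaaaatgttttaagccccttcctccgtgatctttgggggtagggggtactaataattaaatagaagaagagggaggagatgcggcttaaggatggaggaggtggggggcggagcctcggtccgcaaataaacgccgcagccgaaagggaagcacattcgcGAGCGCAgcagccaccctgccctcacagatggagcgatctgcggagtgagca
Slc25a24 (chr3:109122899-109123148, plus strand): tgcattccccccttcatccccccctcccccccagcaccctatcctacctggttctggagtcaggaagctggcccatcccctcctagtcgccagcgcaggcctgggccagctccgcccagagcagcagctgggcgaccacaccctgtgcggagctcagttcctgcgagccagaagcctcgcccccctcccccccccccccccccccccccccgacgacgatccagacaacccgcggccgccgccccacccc
Slc30a1, the zinc exporter, held a metal response core that began 43 bases before the start, and Slc7a8 held a match of the same core at 52 bases. Slc16a3, the lactate exporter, held a pair of hypoxia response cores at 27 and 14 bases, and the windows of Slc2a6 and Slc25a24 held none of the motifs searched. RefSeq windows matched 90 of the 122 members. The metal response core stood in 38.9% of these, in 34.7% of the tested genes with a window and in 23.8% of all genes with a window. For the hypoxia response core the shares were 26.7%, 26.6% and 18.5%. The kappaB consensus stood in 6.67% of member windows and 7.45% of those of tested genes, the AP-1 site (TGANTCA) in 6.67% and 5.36%, and the amino acid response core (TGATGNAA) in 3.33% and 2.35%. These cores did not overlap each other in the windows printed, and a match is a description of letters and not of binding.

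A pair of genes dominated the RNA of the carriers. Slc25a3, the carrier that brings phosphate into mitochondria for ATP synthesis, had 615 and 540 RPKM in SI-ILC2s, against 695 and 602 in WAT-ILC2s (change -0.17, adjusted p = 0.52). It took 38.6% to 44.4% of the summed RPKM of all carriers in each library, and its libraries overlapped between tissues. Slc3a2 (chromosome 19, 8706882 to 8723369), the heavy chain of CD98 that carries amino acid carrier light chains to the membrane, had 256 and 238 RPKM in SI-ILC2s, against 129 and 119 in WAT-ILC2s (change 0.99, SE 0.16, adjusted p = 0.0039). It took 18.5% and 17.6% of the summed carrier RPKM in SI-ILC2s, against 8.21% and 7.61% in WAT-ILC2s. Only 2 members had a mean of at least 100 RPKM and 16 had a mean of at least 10 RPKM. The median of the member means was 2.87 RPKM, beside 4.13 RPKM over all genes tested, and 43 members averaged below 2 RPKM.

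**Figure D2:**
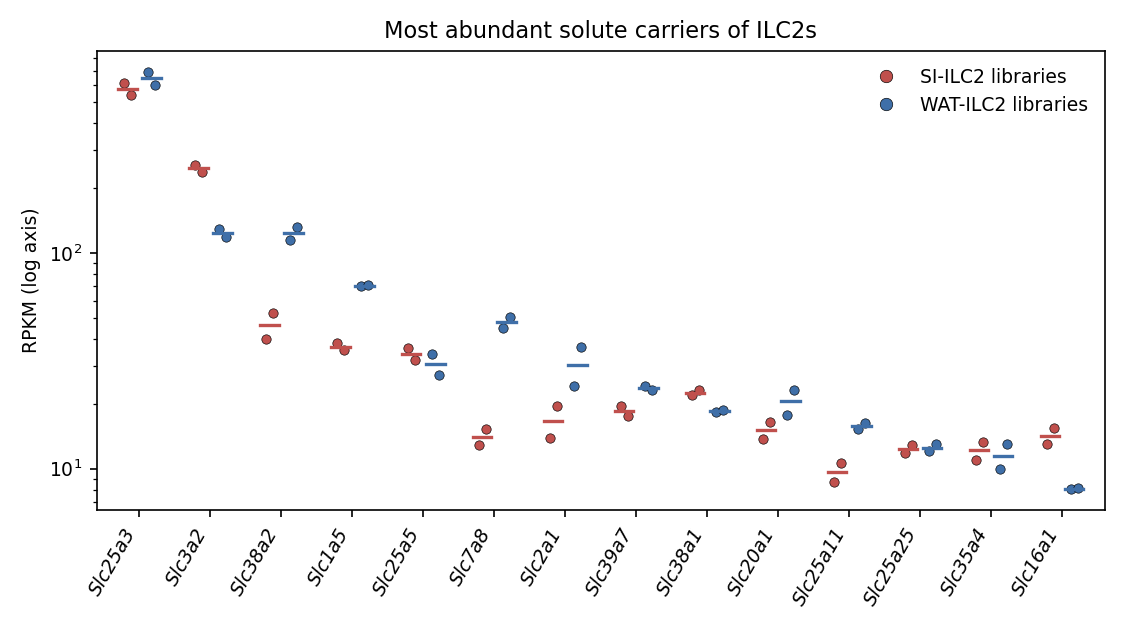
RPKM on a log axis for the 14 carriers with a mean of at least 10 RPKM, in falling order of their mean. Points are libraries and bars the means of 2 libraries. Slc3a2 and Slc16a1 were higher in SI-ILC2s, while Slc38a2, Slc1a5, Slc7a8, Slc2a1 and Slc25a11 were higher in WAT-ILC2s.

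Among the 14 amino acid carriers, 2 were called toward SI-ILC2s and 7 toward WAT-ILC2s, while 5 were not called, with a median change of -0.41. The heavy chain Slc3a2 was called opposite to its light chains Slc7a8 and Slc7a5. Slc7a8, a light chain for neutral amino acids (chromosome 14, 54722209 to 54781946), had 12.9 and 15.2 RPKM in SI-ILC2s, against 44.9 and 50.7 in WAT-ILC2s (change -1.70, SE 0.15, adjusted p = 6.5e-04). Slc7a5, the light chain that imports leucine and other large amino acids, had 5.94 and 7.24 RPKM in SI-ILC2s, against 9.98 and 13.3 in WAT-ILC2s. Its change was -0.73 (adjusted p = 0.019), and without SI-ILC2 replicate 1 it was -0.61 with an adjusted p of 0.11. Slc7a6, a light chain for cationic and neutral amino acids, had 1.95 and 2.14 RPKM in SI-ILC2s, against 2.82 and 3.15 in WAT-ILC2s, and was not called (adjusted p = 0.061). Together, the 3 light chains summed to 0.0812 and 0.103 of the RPKM of the heavy chain in SI-ILC2s, against 0.448 and 0.565 in WAT-ILC2s. The ratio was thus lower in every SI-ILC2 library than in every WAT-ILC2 library.

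Carriers of glutamine and other small neutral amino acids did not share 1 direction. Slc38a2, a sodium-coupled importer that amino acid shortage is known to raise, had 40.02 and 53.01 RPKM in SI-ILC2s, against 115 and 133 in WAT-ILC2s (change -1.40, adjusted p = 0.0021). Slc1a5, a glutamine exchanger, had 38.2 and 35.5 RPKM in SI-ILC2s, against 70.1 and 71.1 in WAT-ILC2s (change -0.92, adjusted p = 0.0032). Slc38a1, a relative of Slc38a2, had 21.9 and 23.1 RPKM in SI-ILC2s, against 18.3 and 18.6 in WAT-ILC2s, without a call (change 0.27, adjusted p = 0.14). With median-of-ratios scaling it was called toward SI-ILC2s (adjusted p = 0.032). Slc6a6, the taurine carrier, averaged 2.64 ± 0.176 RPKM in SI-ILC2s, against 5.50 ± 0.276 in WAT-ILC2s (SD, n = 2 each), a call toward WAT-ILC2s. Slc38a9, a lysosomal carrier that reports arginine to the growth kinase mTOR, averaged 0.831 RPKM in SI-ILC2s, against 1.88 in WAT-ILC2s (adjusted p = 0.0065). Slc16a10, which carries aromatic amino acids, and Slc6a12, which carries betaine and GABA, were called toward WAT-ILC2s and SI-ILC2s in that order. Each call was lost under at least 6 of 12 alternatives, and the filter of 5 RPKM tested neither gene. Slc7a1, the main importer of arginine, had 1.75 and 1.92 RPKM in SI-ILC2s, against 1.63 and 1.26 in WAT-ILC2s (adjusted p = 0.24, not called). Without Slc3a2, the class summed to 135 and 154 RPKM in SI-ILC2s, against 278 and 312 in WAT-ILC2s.

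Sugar carriers numbered 10, of which 2 were called toward SI-ILC2s and 4 toward WAT-ILC2s. Slc2a1, the basal glucose carrier of most cells, had 13.9 and 19.5 RPKM in SI-ILC2s, against 24.1 and 36.6 in WAT-ILC2s (change -0.81, adjusted p = 0.035). Its call was lost with median-of-ratios scaling (adjusted p = 0.061), with no filter (adjusted p = 0.067) and without SI-ILC2 replicate 1 (change -0.59, adjusted p = 0.16). Slc2a3 (chromosome 6, 122727809 to 122801640) had 2.42 and 3.09 RPKM in SI-ILC2s, against 12.3 and 15.9 in WAT-ILC2s. The ratio of Slc2a1 to Slc2a3 was 5.73 and 6.31 in SI-ILC2s, against 1.96 and 2.31 in WAT-ILC2s. Slc2a1 was therefore the more abundant glucose carrier per length in all 4 libraries, by a wider margin in SI-ILC2s. Slc50a1, a sugar carrier of the SWEET family, averaged 5.40 ± 1.73 RPKM in SI-ILC2s, against 9.84 ± 1.17 in WAT-ILC2s (SD, n = 2 each, adjusted p = 0.025). That call was lost with median-of-ratios scaling (adjusted p = 0.064) and without SI-ILC2 replicate 2 (change -0.50, adjusted p = 0.12). Slc37a3, of the sugar phosphate carrier family, was higher in WAT-ILC2s (2.003 against 4.54 RPKM), and Slc45a4 was higher in SI-ILC2s (1.79 against 0.935 RPKM). The call of Slc45a4 was lost with no filter (adjusted p = 0.053), without SI-ILC2 replicate 1 and without WAT-ILC2 replicate 2. Slc2a8, an intracellular hexose carrier, averaged 3.69 RPKM in SI-ILC2s, against 4.87 in WAT-ILC2s and was not called (adjusted p = 0.17).

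Among classes of at least 10 members, anion carriers had the largest share of calls, 12 of 15. The class had 4 calls toward SI-ILC2s (26.7%) and 8 toward WAT-ILC2s (53.3%), beside 17.9% and 29.6% of all genes tested. Among these calls, Slc20a2 passed the limit for members through SI-ILC2 libraries alone. Slc16a3, Slc26a2, Slco2b1, Slc10a7 and Slc17a5 passed it through WAT-ILC2 libraries alone. All of these had to differ in level, so the ranking is a description. Within the monocarboxylate family, which moves lactate, pyruvate and ketone bodies, the 2 lactate carriers were called in opposite directions. Slc16a1 had 13.003 and 15.5 RPKM in SI-ILC2s, against 8.02 and 8.15 in WAT-ILC2s (change 0.74, SE 0.15, adjusted p = 0.0081), and without SI-ILC2 replicate 2 its change was 0.62 with an adjusted p of 0.062. Slc16a3, a carrier known for lactate export from glycolytic cells that passed the limit through WAT-ILC2 libraries alone, had 0.223 and 0.505 RPKM in SI-ILC2s, against 2.096 and 4.25 in WAT-ILC2s (change -1.57, SE 0.26, adjusted p = 0.0042). Replicates of Slc16a3 differed by a ratio of 2.26 in SI-ILC2s, against 2.03 in WAT-ILC2s, and the tissues did not overlap. The ratio of Slc16a1 to Slc16a3 was 58.2 and 30.6 in SI-ILC2s, against 3.82 and 1.92 in WAT-ILC2s. Slc16a6 followed Slc16a1, with a mean of 4.96 RPKM in SI-ILC2s, against 2.57 in WAT-ILC2s (adjusted p = 0.011, and 0.064 without SI-ILC2 replicate 1). Its exons overlap Arsg and Amz2 on the opposite strand, and the strand setting of the counting is not stated in the labels.

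The sodium-phosphate importers Slc20a1 and Slc20a2 did not share a call. Slc20a2 had 2.16 and 2.78 RPKM in SI-ILC2s, against 0.741 and 0.984 in WAT-ILC2s (change 0.89, adjusted p = 0.0048). Slc20a1 had 13.7 and 16.5 RPKM in SI-ILC2s, against 17.8 and 23.2 in WAT-ILC2s, and missed the threshold (adjusted p = 0.1). Slc4a7, a sodium bicarbonate importer, had 3.12 and 4.61 RPKM in SI-ILC2s, against 9.46 and 11.3 in WAT-ILC2s (change -1.24, adjusted p = 0.0037). Slc17a9, which loads ATP and other nucleotides into vesicles, had 1.49 and 1.97 RPKM in SI-ILC2s, against 5.54 and 6.86 in WAT-ILC2s (change -1.40, adjusted p = 0.0016). Lower-level anion carriers called toward WAT-ILC2s were Slc10a7 (0.354 against 1.54 RPKM), Slc17a5, the lysosomal sialic acid exporter (0.439 against 1.24 RPKM), Slco2b1, an organic anion carrier also known from macrophages (0.616 against 1.49 RPKM), Slc26a2, a sulfate carrier, and Slc4a2, an anion exchanger. The calls of Slc26a2 and Slc4a2, and that of Slc10a3 toward SI-ILC2s, were lost under at least 5 of 12 alternatives. None of these genes was tested with the filter of 5 RPKM, so no call could be kept or lost there. The call of Slco2b1 was lost with quantile normalization (adjusted p = 0.053) and without SI-ILC2 replicate 2.

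Of 10 cation carriers, 5 were called toward WAT-ILC2s and none toward SI-ILC2s. Slc9a8, a sodium-proton exchanger, had 3.97 and 4.13 RPKM in SI-ILC2s, against 1.595 and 3.17 in WAT-ILC2s, and missed the threshold (change 0.62, adjusted p = 0.07). It was called toward SI-ILC2s with median-of-ratios scaling, with quantile normalization, with the replicate number as a block and without WAT-ILC2 replicate 2. Slc12a2, the sodium-potassium-chloride importer, averaged 0.841 ± 0.287 RPKM in SI-ILC2s, against 2.75 ± 0.414 in WAT-ILC2s (SD, n = 2 each, adjusted p = 0.004). Slc24a5 and Slc24a1, potassium-dependent sodium-calcium exchangers, were called toward WAT-ILC2s near the 1 RPKM limit, which both passed through WAT-ILC2 libraries alone. The call of Slc24a1 was lost under 8 of 12 alternatives, among them leaving out any library. That of Slc24a5 was lost under 3, with quantile normalization, with no filter and without SI-ILC2 replicate 1. The filter of 5 RPKM tested neither gene.

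Metal carriers had the smallest share of calls among classes of at least 10 members, 5 of 18, while 47.5% of all genes tested were called. Both SI-ILC2 calls fell on zinc carriers of the plasma membrane that work in opposite directions. Slc30a1 (chromosome 1, 191906767 to 191913247), the zinc exporter of the cell surface, had 6.94 and 7.70 RPKM in SI-ILC2s, against 1.54 and 1.11 in WAT-ILC2s (change 1.84, SE 0.16, adjusted p = 5.8e-04). Slc39a4, a zinc importer known for its role in intestinal zinc uptake (chromosome 15, 76612383 to 76617384), had 10.6 and 9.64 RPKM in SI-ILC2s, against 3.78 and 4.74 in WAT-ILC2s (change 1.09, SE 0.16, adjusted p = 0.0027). The ranges of the tissues were far apart for each of these genes, with no overlap. Slc39a13, a zinc carrier of intracellular vesicles, had 1.25 and 2.19 RPKM in SI-ILC2s, against 3.85 and 6.57 in WAT-ILC2s (change -1.18, adjusted p = 0.013). Slc30a7, which loads zinc into the Golgi, averaged 0.636 RPKM in SI-ILC2s, against 1.76 in WAT-ILC2s (adjusted p = 0.0039). Slc31a1, the main copper importer, averaged 1.46 RPKM in SI-ILC2s, against 2.93 in WAT-ILC2s (adjusted p = 0.011, and 0.052 without SI-ILC2 replicate 1). The most abundant member of the class, Slc39a7, which releases zinc from the endoplasmic reticulum, had 19.5 and 17.5 RPKM in SI-ILC2s, against 24.3 and 23.1 in WAT-ILC2s and missed the threshold (adjusted p = 0.084). Slc30a5, a zinc carrier of the secretory pathway, had 7.67 and 11.3 RPKM in SI-ILC2s, against 6.68 and 10.5 in WAT-ILC2s, so its tissues overlapped. Slc30a1 overlaps the exons of a gene on the opposite strand, as do Slc39a13 and Psmc3.

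Mitochondrial carriers were the largest class, and 18 of 29 were not called. Another 2 were called toward SI-ILC2s and 9 toward WAT-ILC2s, with a median change of -0.25. The WAT-ILC2 count of 9 among 29 was near the share of all genes tested, 29.6%. Slc25a51, whose human counterpart imports NAD into mitochondria (chromosome 4, 45395923 to 45408766), had 14.1 and 13.9 RPKM in SI-ILC2s, against 2.70 and 3.18 in WAT-ILC2s (change 1.93, SE 0.14, adjusted p = 3.8e-04). The other SI-ILC2 call, Slc25a36, a carrier of pyrimidine nucleotides, was smaller (8.95 against 6.20 RPKM, adjusted p = 0.039). It was lost without either SI-ILC2 library and without WAT-ILC2 replicate 1. Rescaling to equal sums (adjusted p = 0.13) and fitting with no filter (adjusted p = 0.076) also lost it.

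Slc25a12 and Slc25a11, carriers of the malate-aspartate shuttle, which passes reducing equivalents from the cytosol into mitochondria, were among the WAT-ILC2 calls. Slc25a12, the aspartate-glutamate exchanger, had 2.48 and 2.95 RPKM in SI-ILC2s, against 9.77 and 10.4 in WAT-ILC2s (change -1.58, SE 0.15, adjusted p = 6.8e-04). Slc25a11, the oxoglutarate-malate exchanger, had 8.65 and 10.7 RPKM in SI-ILC2s, against 15.3 and 16.3 in WAT-ILC2s (change -0.66, adjusted p = 0.014, and -0.53 with an adjusted p of 0.12 without SI-ILC2 replicate 1). The ATP-magnesium carriers were not all called. Beside Slc25a24, Slc25a23 averaged 1.71 ± 0.850 RPKM in SI-ILC2s, against 3.75 ± 0.524 in WAT-ILC2s (SD, n = 2 each, adjusted p = 0.027). Its call was lost with no filter (adjusted p = 0.051) and without SI-ILC2 replicate 1 (change -0.52). Slc25a25 of the same group had 11.8 and 12.9 RPKM in SI-ILC2s, against 12.01 and 13.04 in WAT-ILC2s (adjusted p = 0.92). In SI-ILC2s it thus stood far above Slc25a24 per length, while in WAT-ILC2s Slc25a24 reached 5.34 RPKM on average.

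Other WAT-ILC2 calls of the class were Slc25a30 (4.17 against 7.87 RPKM), the glutamate carrier Slc25a22 (1.10 against 2.72 RPKM), the ornithine carrier Slc25a15 (0.964 against 2.001 RPKM), the peroxisomal carrier Slc25a17 (4.40 against 6.93 RPKM) and Slc25a37, the iron importer mitoferrin of developing red cells (1.41 against 2.95 RPKM). Red cell markers were also higher in WAT-ILC2s, while the red cell carrier Slc4a1 stayed at 0.162 RPKM or below in all 4 libraries. The call of Slc25a22 or Slc25a37 was lost without SI-ILC2 replicate 1, and that of Slc25a15 without SI-ILC2 replicate 2. That of Slc25a17 was lost without either of these or WAT-ILC2 replicate 1. It was also lost with median-of-ratios scaling (adjusted p = 0.071) and with quantile normalization (adjusted p = 0.052). The adenine nucleotide translocases, which exchange ADP for ATP, showed no call. Slc25a5 had 36.3 and 32.1 RPKM in SI-ILC2s, against 34.2 and 27.2 in WAT-ILC2s, and Slc25a4 averaged 8.26 RPKM in SI-ILC2s, against 9.61 in WAT-ILC2s. Without Slc25a3, the class summed to 153 and 161 RPKM in SI-ILC2s, against 175 and 178 in WAT-ILC2s.

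**Figure D3:**
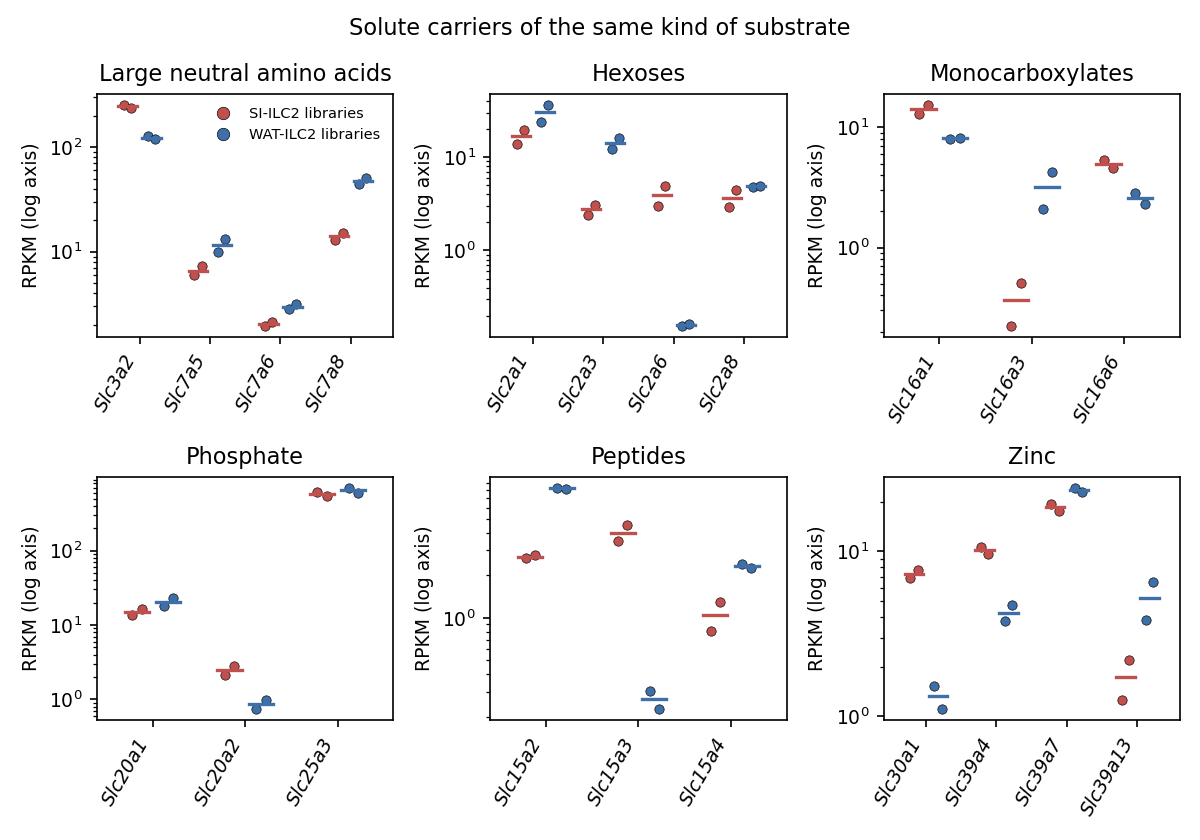
RPKM on log axes for carriers that share a kind of substrate, in 6 panels, with a point for each library and bars for means of 2 libraries. In every panel but that of phosphate, members called higher in SI-ILC2s stand beside members called higher in WAT-ILC2s, such as Slc2a6 (change 2.07) and Slc2a3 (change -2.002).

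Slc29a1, the equilibrative nucleoside carrier, was the only nucleoside carrier among the members. It had 3.52 and 3.72 RPKM in SI-ILC2s, against 6.52 and 6.86 in WAT-ILC2s (change -0.74, adjusted p = 0.0067). Of 5 nucleotide sugar carriers, Slc35a1, which brings CMP-sialic acid into the Golgi, averaged 2.17 ± 0.0146 RPKM in SI-ILC2s, against 4.49 ± 0.604 in WAT-ILC2s (SD, n = 2 each, adjusted p = 0.007). Slc35a5 was also higher in WAT-ILC2s (0.805 against 1.85 RPKM). Slc35a4, the most abundant of them, had 10.95 and 13.4 RPKM in SI-ILC2s, against 9.94 and 13.1 in WAT-ILC2s, and was not called.

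The proton-coupled peptide carriers were called in opposite directions. In contrast to Slc15a3, Slc15a2, a peptide importer of the plasma membrane, had 2.63 and 2.76 RPKM in SI-ILC2s, against 8.30 and 8.20 in WAT-ILC2s (change -1.32, SE 0.14, adjusted p = 9.4e-04). Slc15a4, the lysosomal relative of Slc15a3, had 0.808 and 1.29 RPKM in SI-ILC2s, against 2.39 and 2.27 in WAT-ILC2s (adjusted p = 0.013, and 0.074 without SI-ILC2 replicate 1). The ratio of Slc15a2 to Slc15a3 was 0.751 and 0.614 in SI-ILC2s, against 27.1 and 36.2 in WAT-ILC2s. Slc15a3 is also known from macrophages, and macrophage and dendritic markers summed to 3.87 and 1.83 RPKM in SI-ILC2s, against 6.21 and 7.85 in WAT-ILC2s. Of these markers, Lyz2 had 0.633 and 0.331 RPKM in SI-ILC2s, against 3.53 and 5.50 in WAT-ILC2s. Csf1r, Cd68 and C1qa overlapped between tissues, and Itgax stayed at or below 0.0828 RPKM. Slc15a3 shares exon sequence with Tmem132a on the opposite strand. Slc18a2, which loads serotonin and other monoamines into vesicles, had 4.99 and 5.80 RPKM in SI-ILC2s, against 4.43 and 3.95 in WAT-ILC2s, and was not called (adjusted p = 0.14).

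Among 11 carriers of vitamins, choline and fatty acids, 1 (9.09%) was called toward SI-ILC2s and 4 (36.4%) toward WAT-ILC2s. Over all genes tested the shares were 17.9% and 29.6%. The SI-ILC2 call was Slc23a2, a vitamin C importer (2.61 against 1.26 RPKM, adjusted p = 0.027). It was lost without SI-ILC2 replicate 2 (change 0.45), with equal sums (adjusted p = 0.054) and with no filter (adjusted p = 0.058). Slc44a2, a choline carrier, had 4.01 and 4.66 RPKM in SI-ILC2s, against 8.49 and 8.17 in WAT-ILC2s (change -0.81, adjusted p = 0.0056). Slc19a2, the thiamine carrier, had 1.998 and 2.30 RPKM in SI-ILC2s, against 4.97 and 4.73 in WAT-ILC2s (change -0.90, adjusted p = 0.0038). Slc27a6, a fatty acid carrier, averaged 0.520 RPKM in SI-ILC2s, against 1.86 in WAT-ILC2s (adjusted p = 0.0043). Slc19a1, the reduced folate carrier, averaged 1.24 RPKM in SI-ILC2s, against 2.70 in WAT-ILC2s (adjusted p = 0.032). That call was lost with quantile normalization (adjusted p = 0.058) and with no filter (adjusted p = 0.065). It was also lost without SI-ILC2 replicate 1 (change -0.55) and without WAT-ILC2 replicate 2 (change -0.47).

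Of 53 listed genes of transport and its control without an Slc symbol, 41 were tested, with 12 called toward SI-ILC2s and 11 toward WAT-ILC2s. Of the 12, 6 were genes of glucose and amino acid control and 3 of metal handling. Over all genes tested the shares were 17.9% and 29.6%, so the WAT-ILC2 count was near the background. The SI-ILC2 count was above it, in a list chosen with earlier results of these data known. Embigin (Emb), a chaperone of monocarboxylate carriers, had 607 and 569 RPKM in SI-ILC2s, against 245 and 234 in WAT-ILC2s (change 1.29, adjusted p = 0.0022), in the direction of Slc16a1. Basigin (Bsg), the chaperone of both lactate carriers, had 33.5 and 49.0 RPKM in SI-ILC2s, against 27.6 and 46.5 in WAT-ILC2s and was not called. Cd36, a fatty acid translocase, had 1.05 and 0.932 RPKM in SI-ILC2s, against 12.99 and 13.9 in WAT-ILC2s (change -2.86, adjusted p = 1.6e-04). Of the arrestin-like proteins that restrain glucose uptake, Txnip was higher in WAT-ILC2s (52.5 against 115 RPKM) and Arrdc4 was higher in SI-ILC2s (8.38 against 2.71 RPKM).

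The list held several transcription factors known to act on carrier genes, among which Atf4, Epas1, Hif1a, Myc and Mtf1 were called toward SI-ILC2s. Atf4, a factor of the amino acid response, had 388 and 350 RPKM in SI-ILC2s, against 182 and 138 in WAT-ILC2s (change 1.21, adjusted p = 0.0043). Epas1, a factor of the hypoxia response, had 63.2 and 74.1 RPKM in SI-ILC2s, against 1.83 and 1.79 in WAT-ILC2s (change 4.63, adjusted p = 4.9e-05). Hif1a and Myc had changes of 1.20 and 1.28, and the call of Hif1a was lost without SI-ILC2 replicate 2 (adjusted p = 0.065). Mtf1, the metal-responsive factor, averaged 1.93 RPKM in SI-ILC2s, against 1.03 in WAT-ILC2s (adjusted p = 0.025). Its call was lost with no filter (adjusted p = 0.068), without SI-ILC2 replicate 1 (change 0.48) and without WAT-ILC2 replicate 2 (change 0.40). The metallothionein genes Mt1 and Mt2, which bind zinc, stayed below the filter, and Mt2 had 1.13 and 0.842 RPKM in SI-ILC2s, against 0.162 and 0.0819 in WAT-ILC2s. Ftl1, the light chain of the iron store ferritin, had 648 and 560 RPKM in SI-ILC2s, against 161 and 140 in WAT-ILC2s (change 1.999, adjusted p = 6.7e-04).

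Of 7 mitochondrial partners tested, 3 were called toward WAT-ILC2s and none toward SI-ILC2s, beside 29.6% and 17.9% of all genes tested. Micu2, which helps gate the mitochondrial calcium uniporter, averaged 2.49 RPKM in SI-ILC2s, against 5.31 in WAT-ILC2s (change -0.85, adjusted p = 0.006). Mtch1, an insertase of the mitochondrial outer membrane, had 7.48 and 7.53 RPKM in SI-ILC2s, against 15.01 and 16.5 in WAT-ILC2s (change -0.98, adjusted p = 0.0025). Genes of the lysosomal machinery that links amino acids to mTOR were called in both directions. Lamtor2 and Rptor were higher in WAT-ILC2s, with changes of -1.14 and -0.91, while the Rag GTPase gene Rraga had 3.84 and 4.47 RPKM in SI-ILC2s, against 1.85 and 2.01 in WAT-ILC2s (change 0.81, adjusted p = 0.0057). Lamtor1, Rragc, Rheb and Mtor were tested and not called. Stk39, a kinase that acts on chloride cotransporters, was higher in WAT-ILC2s (5.68 against 10.06 RPKM), and its call was lost without either SI-ILC2 library and without WAT-ILC2 replicate 2.

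**Figure D4:**
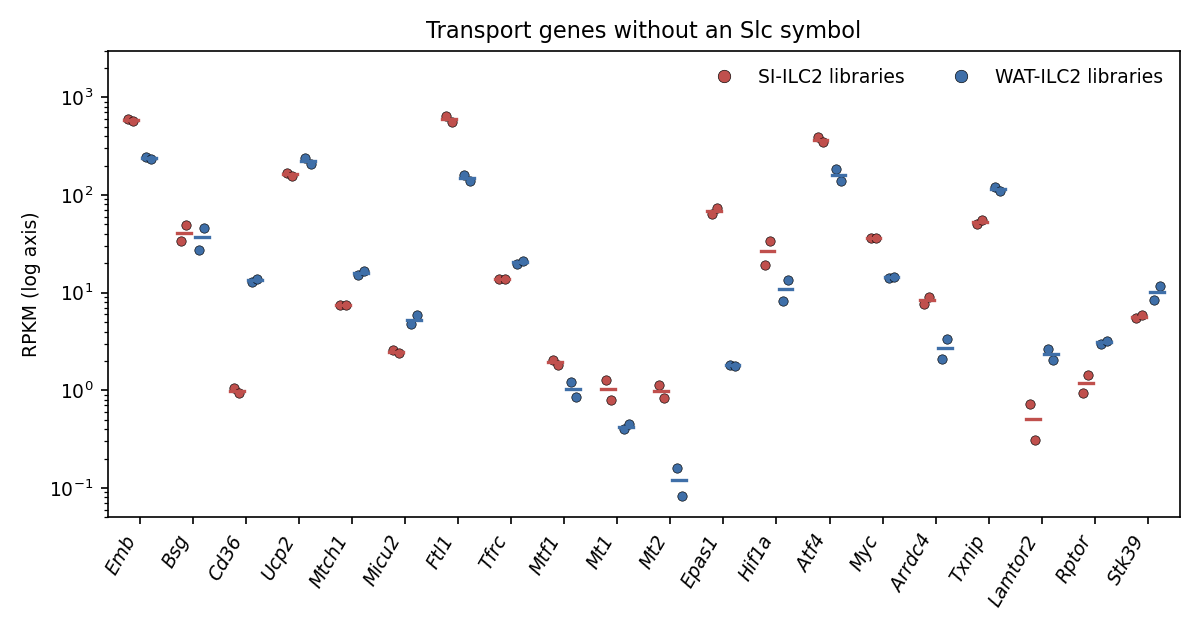
RPKM on a log axis for listed genes of transport and its control without an Slc symbol, with a point for each library and bars for means of 2 libraries. Epas1 has 63.2 and 74.1 RPKM in SI-ILC2s, against 1.83 and 1.79 in WAT-ILC2s, and Cd36 and Txnip stand higher in WAT-ILC2s.

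The 3 members that are not carriers had similar changes, 0.43 to 0.47, with all SI-ILC2 values above all WAT-ILC2 values, and none was called. Slc9a3r1, a scaffold protein that binds the exchanger Slc9a3, had 55.2 and 60.9 RPKM in SI-ILC2s, against 37.9 and 45.9 in WAT-ILC2s (adjusted p = 0.052). Slc7a6os, an unrelated gene beside Slc7a6, averaged 22.9 ± 3.71 RPKM in SI-ILC2s, against 16.5 ± 1.87 in WAT-ILC2s (SD, n = 2 each, adjusted p = 0.068). Just inside the limit stood Slc33a1, with 0.806 and 0.987 RPKM in SI-ILC2s, against 1.10 and 1.03 in WAT-ILC2s, followed by Slc31a2, Slc5a6 and Slc24a5. Just outside stood Slc39a8, with 0.598 and 0.853 RPKM in SI-ILC2s, against 0.984 and 1.05 in WAT-ILC2s, followed by Slc44a1, Slc43a3 and Slc25a40. The 231 rows outside the limit had a median of their means of 0.0869 RPKM, and 7 of them reached 1 RPKM in 1 library. None of the 353 genes was listed at 0 in all 4 libraries.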

How the data were processed

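The table that the authors deposited holds RPKM, 1 column per library, for 22083 genes, so no replicates were merged. Per the submitters' processing notes, the tools were STAR 2.6.0 and featureCounts 1.6.0 (Subread) with the mouse genome GRCm38 (mm10). Which annotation, strand option and filters were used, and how multi-mapped reads were handled, is not stated in the labels. RPKM is not a count and is relative to each library's total, so a few abundant transcripts can shift all others. Column sums ran from 136705 to 158718.

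Genes with at least 1 RPKM in at least 2 libraries (8230) were fitted as log2(RPKM + 1) with limma 3.58.1 in R 4.3.3 (variance trend, 6.4 total degrees of freedom, no covariate). P-values were adjusted over all of them by the Benjamini-Hochberg method, with a threshold of 0.05. Enumerating the splits of 2 against 2 libraries cannot reach that threshold for any gene. The limma step was tested on simulated data with known changes. Depth was the smallest that put close to the best share of values on whole reads within 0.1 (86.2% to 88.1%), from RPKM times exon length in single-exon genes with under 15 reads. Coordinates and exon overlaps came from GENCODE M21 (GRCm38), which matched all 122 members. Exons of 39 members overlapped a gene on the opposite strand and those of 8 a gene on the same strand. Upstream sequences came from RefSeq (GRCm38.p6).

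The members, substrate classes and lists were chosen with earlier results of these data known. A naming rule gave 50 genes: the most abundant members, in each class at most 3 called members a direction (mean of at least 5 RPKM) and the 2 most abundant, those nearest the limit and the leading genes of 2 lists. The other named genes, among them Slc2a6, Slc25a24, Slc30a1 and Slc16a3, were chosen after their values were seen. Python 3.11.15 served for the tables (pandas 2.3.3, numpy 2.4.6) and for the plots (matplotlib 3.10.9). Results for some genes are not reported here.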

Additional observations from a re-analysis of the deposited data

How the results depend on the processing

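Of the 59 called members, 34 (7 toward SI-ILC2s and 27 toward WAT-ILC2s) were called in every one of the 12 alternatives that tested them, and no member call changed sign. Members called toward SI-ILC2s numbered 22 with median-of-ratios scaling, 9 with no filter and 6 with a filter of 5 RPKM, which tests fewer genes. That filter left 19 members toward WAT-ILC2s and, over all genes, 899 toward SI-ILC2s and 1182 toward WAT-ILC2s. Leaving out each library in turn gave 9 to 16 members toward SI-ILC2s, 30 to 52 toward WAT-ILC2s and, over all genes, 1492 to 2551 toward WAT-ILC2s. The lone library of a tissue is then assumed to vary like the other tissue. The cause of these shifts was not tested.

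Class medians moved as follows. With median-of-ratios scaling they were -0.11 (mitochondrial), -0.17 (nucleotide sugar) and 0.11 (other), and with quantile normalization -0.38 (anion), -0.10 (nucleotide sugar), 0.17 (other) and -0.10 (sugar). Equal sums gave -0.10 (other), and a pseudocount of 0.1 gave -0.84 (anion), -0.46 (nucleotide sugar) and -0.74 (vitamin and lipid). The 5 RPKM filter gave -0.84 (amino acid), -0.41 (anion), 0.61 (metal), 0.08 (nucleotide sugar), -1.32 (other), -0.81 (sugar) and -0.81 (vitamin and lipid). Leaving out each library in turn gave -0.73 to -0.36 (anion), -0.48 to -0.07 (nucleotide sugar) and -0.46 to -0.05 (sugar).

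Sign changes among named genes fell on uncalled ones: Slc25a3, Slc25a25 and Gata3 (0.02, 0.16 and 0.19 with median-of-ratios scaling), Slc33a1 (0.07 with quantile normalization), and Slc30a5 and Slc35a4 (-0.00 and -0.06 with equal sums). Leaving out each library in turn gave -0.00 to 0.32 for Slc25a5, -0.08 to 0.04 for Slc25a25, -0.47 to 0.04 for Slc25a4, -0.12 to 0.11 for Gata3, -0.15 to 0.43 for Slc30a5, -0.10 to 0.26 for Slc35a4 and -0.19 to 0.54 for Bsg.

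With the replicate block, 23 members and 2271 genes were called toward SI-ILC2s, and all 14 and 45 member calls were kept. Deviations of same-numbered libraries correlated at r = 0.57 across genes, which are not independent. The labels do not tie the numbers to a shared mouse or day. Whether same-numbered libraries share more than a number is therefore not known.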
